A study of Rattus norvegicus with 8 samples.

Results

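The genes that encode the proteins of the cytosolic ribosome were examined in germ cells of prepubertal rats given doxorubicin. Members were rows of the count table with the symbol Rpl or Rps and a number, with or without an a, x or y, further digits and a final l. Rplp0, Rplp1, Rplp2 and Rpsa were added. Rows with a -ps suffix (given to rows named as pseudogenes of a member) were left out. Symbols that end in l and a digit also fall outside this rule, some of them abundant, such as Rps18l1 (mean of 15009 counts), Rpl7l1 (12262) and Rpl37l1 (11145). Where a symbol repeated, the row with the highest mean count was taken, and a mean of at least 100 estimated counts over the 8 libraries was required. This gave 73 members of 24059 rows, of which 39 encode proteins of the large (60S) subunit, 31 proteins of the small (40S) subunit or paralogs of them, and 3 the stalk proteins of the large subunit. All 73 were among the 16976 genes tested.

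PolyA RNA was sequenced from GFP-positive germ cells of transgenic Sprague-Dawley rats (GCS-EGFP) treated on postnatal day 6 and sampled 24 h later. The control group (rats 1, 4, 5 and 9) received vehicle and the treated group (rats 2, 3, 6 and 8) doxorubicin at 5 mg/kg, with all 8 animals carrying the reporter. Each library came from 1 rat, and the promoter that drives the reporter is not given in the sources used here. Doxorubicin is an anthracycline that traps topoisomerase II on DNA and leaves strand breaks, and the comparison asks which transcripts differ within a day of exposure.

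Ribosomal proteins are made in near-equal amounts, since each ribosome carries a single copy of almost every one, the stalk proteins P1 and P2 being the exception. Their mRNAs are abundant in proliferating cells and mostly begin with a 5′ terminal oligopyrimidine (TOP) tract, a cytosine followed by further pyrimidines, through which the kinase mTORC1 and the RNA-binding protein LARP1 control their translation and stability. Free ribosomal proteins, foremost L5 and L11 bound to 5S rRNA, can also bind the ubiquitin ligase MDM2 and so stabilise p53. Rps27l, a paralog of Rps27, is known as a transcriptional target of p53.

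The start sites are shown for the pyrimidine runs near them, which differ between members. RefSeq promoter windows of the GRCr8 assembly, from 250 bases before to 50 after each annotated start, were matched for 56 of the 73 members. Of these, 21 (37.5%) had a C at the start followed by at least 4 further C or T bases, against 2.63% of all 33469 windows. A run of at least 5 C or T within 15 bases of the start on either side was present in 49 (87.5%), against 45.6% of all windows. The 30 bases around the start are shown for a selection of the members described below. Matched windows of other members described below are not shown. Bases are on the strand of the gene, 15 on each side, with the longest C or T run of at least 5 bases in capitals.
Rps27 (chr2:177964592-177964621, minus strand): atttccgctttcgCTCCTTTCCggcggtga
Rps27l (chr8:76443643-76443672, plus strand): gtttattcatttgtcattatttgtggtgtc
Rplp0 (chr12:46718376-46718405, minus strand): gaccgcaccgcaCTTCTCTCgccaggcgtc
Rplp1 (chr8:71290858-71290887, minus strand): gcaggcgcatgtgaTCCTTTCCTCagctgc
Rpl10 (chrX:157205835-157205864, plus strand): caggcgtgggagcgTCTCTTTTCCTCTggc
Rpl3 (chr7:113507976-113508005, minus strand): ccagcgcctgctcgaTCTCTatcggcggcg
Rps7 (chr6:50999431-50999460, minus strand): tcgcgagagctgtgTCTCTTTCTaagccgg
Rps19 (chr1:89608673-89608702, plus strand): cccgacttgtgcgcccgggaaaccccgtcg
Rps4y2 (chr4:183000898-183000927, plus strand): gcgcgcagCTCTCCTCactcgcttgtgctc
Rps27 has a tract of 9 pyrimidines across its start, while the longest run in the Rps27l window is 3 bases. The Rps19 window also holds none of 5 or more. Annotated starts can lie some bases from those used in these cells, so a missing tract says only that these letters are not in this window.

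Across the family, transcript levels in treated and control rats were nearly the same. edgeR's quasi-likelihood test with Benjamini-Hochberg adjustment over all genes called 0 of the 73 members in either direction, against 0.112% of all genes tested (0.106% higher, 0.00589% lower), and limma-voom called 0 against 0.141%. DESeq2 called 1, Rps27l, higher after doxorubicin, against 0.961% of genes. At an unadjusted edgeR p below 0.05 stood 8 members, all higher in treated rats, against 6.76% of all genes (4.19% higher, 2.56% lower). The median log2 fold change of the members was 0.04, against -0.0047 over all genes tested, and 62 of 73 were positive, against 47.8% of all genes. The 95% interval of the fold change lay within 1.25-fold in either direction for 67 of 73 members, against 56.1% of genes. Only 9 members (12.3%) had a log2 fold change larger than 0.1 in size. In all genes this share was 35.6%.

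**Figure D1:**
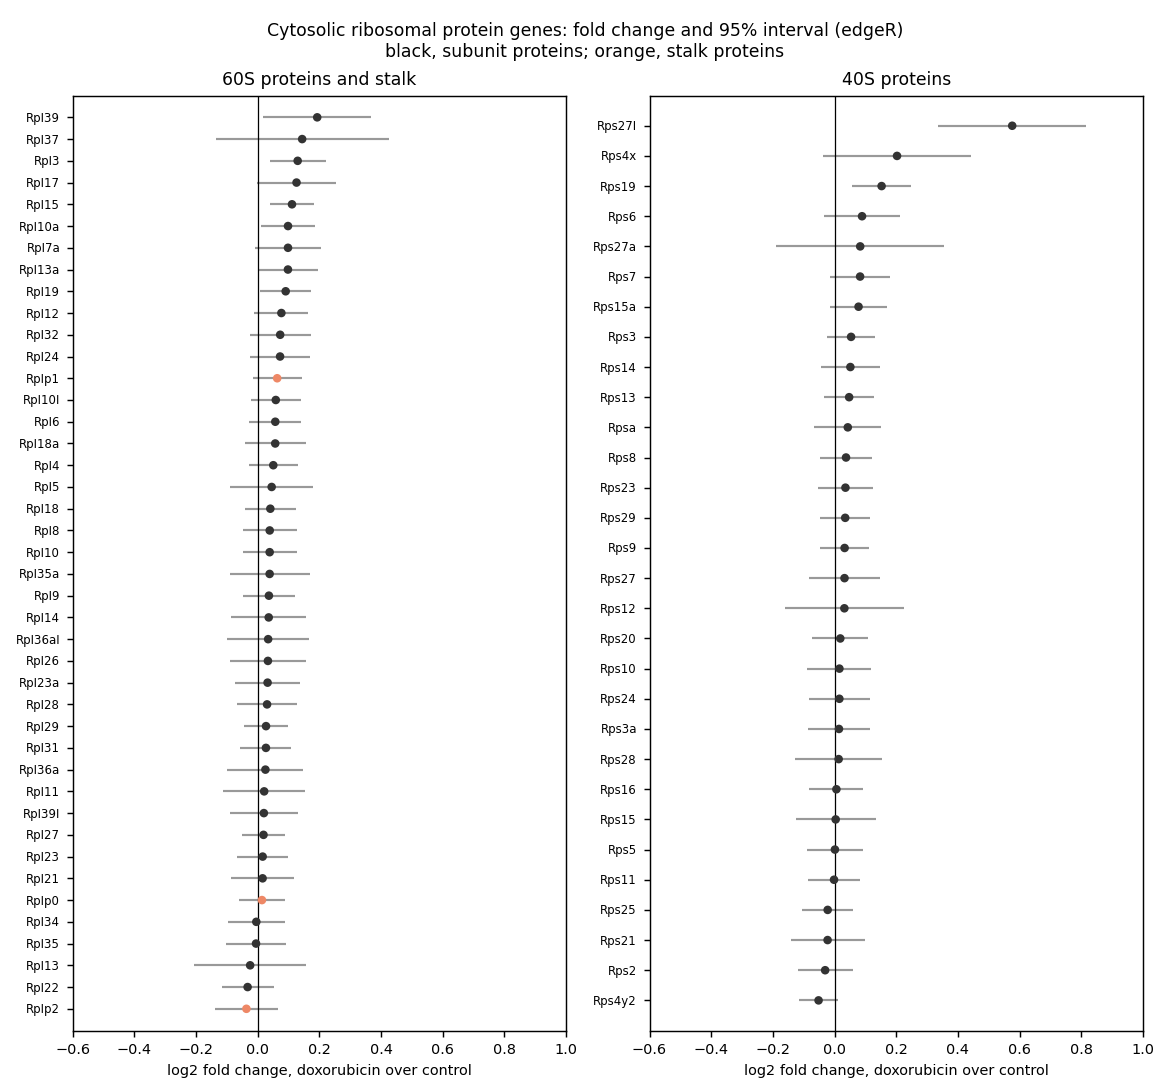
Log2 fold change (x axis, doxorubicin over control) of 72 of the 73 members (y axis), with bars for the 95% interval from edgeR, n = 4 rats per group. Rps27l at 0.58 stands to the right of all others, with an interval from 0.34 to 0.82 that lies above 0.

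Rps27l, which encodes a 40S protein nearly the same as RPS27, was the member that differed most. It stood at 33.1, 32.4, 28.4 and 27.1 CPM (counts-per-million, TMM-scaled) in control rats 1, 4, 5 and 9. In doxorubicin rats 2, 3, 6 and 8 it stood at 55.8, 40.7, 41.3 and 42.6 CPM. All treated libraries lay above all control libraries, with rat 2 above the other treated rats. The means were 30.2 ± 2.98 and 45.1 ± 7.17 CPM (SD, n = 4 each), a 1.49-fold difference (95% interval 1.26 to 1.76) and a log2 fold change of 0.58 ± 0.11 (SE). This missed the threshold in edgeR (adjusted p = 0.0917) and limma-voom (adjusted p = 0.0775) and passed it in DESeq2 (adjusted p = 2.55e-05). Without doxorubicin rat 2 the log2 fold change was 0.46 and edgeR called the gene (adjusted p = 0.00855). It was also called when the edgeR fit held a term for low (1 to 4) against high (5 to 9) animal numbers (adjusted p = 0.0199). This split comes from an earlier look at these data and is no labelled batch. Within rats 1 to 4 (controls 1 and 4, treated 2 and 3) the log2 fold change was 0.56 (adjusted p = 0.906 by edgeR). Within rats 5 to 9 (controls 5 and 9, treated 6 and 8) it was 0.60 (adjusted p = 0.000238 by edgeR). These fits rest on few rats per group and on a split made after seeing the data.

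The paralog Rps27, which held most of the counts of the pair, was close between the groups. It stood at 177.4, 187.2, 204.8 and 208.3 CPM in control rats 1, 4, 5 and 9. In doxorubicin rats 2, 3, 6 and 8 it stood at 199.3, 188.8, 211.4 and 195.7 CPM. The groups overlapped throughout, with a log2 fold change of 0.03 (95% interval -0.08 to 0.15, adjusted p = 0.967 by edgeR). Rps27l made up 13.5% ± 2.03 of the counts of the pair in control rats and 18.5% ± 2.38 in treated rats (SD, n = 4 per group). The shares ran from 11.5% to 15.7% in controls and from 16.3% to 21.9% in treated rats and did not overlap. All 8 Rps27l values were whole counts, which is the case for 4 of the 73 members. The other members had estimated counts that were not whole (by more than 1e-06) in at least 1 library.

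**Figure D2:**
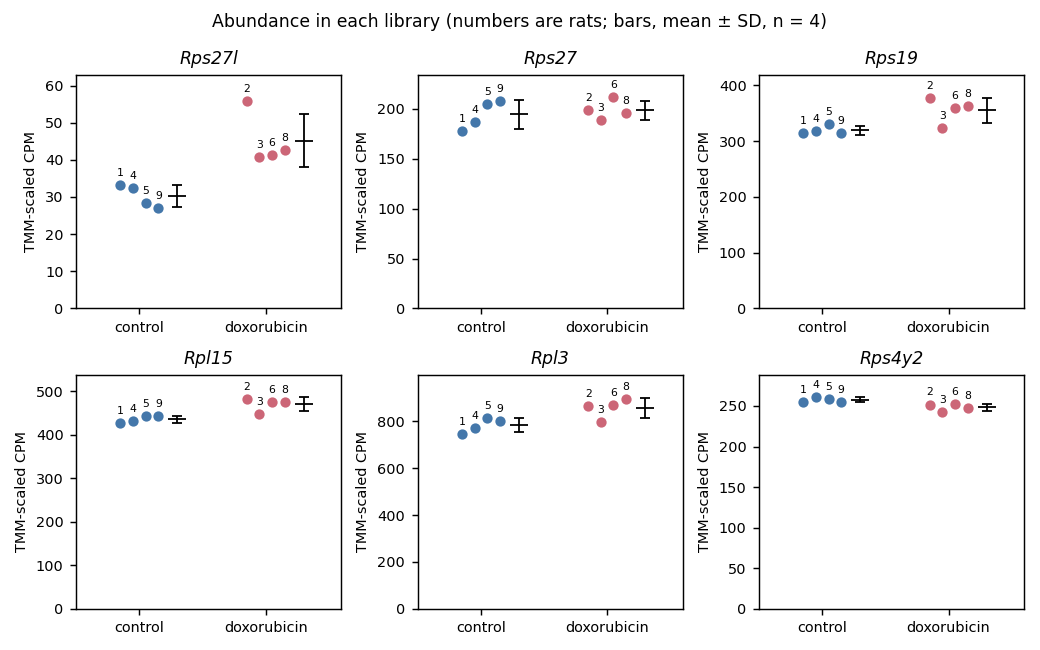
TMM-scaled CPM (y axis, from 0) of 6 members in each library, with rat numbers above the points and the mean ± SD of each group (n = 4) beside them. For Rps27l the treated libraries (40.7 to 55.8 CPM) lie above the controls (27.1 to 33.1 CPM), while Rps27 overlaps between groups.

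After Rps27l, the members with the smallest p were Rps19, Rpl15 and Rpl3, with log2 fold changes of 0.15 or less and none past the threshold. Rps19, a 40S protein and the gene most often mutated in Diamond-Blackfan anaemia, stood at 314.5, 319.0, 331.4 and 314.2 CPM in controls. It stood at 377.0, 323.8, 358.9 and 362.1 CPM in doxorubicin rats 2, 3, 6 and 8. Rat 3 lay within the control range and the other treated rats above it, for a log2 fold change of 0.15 ± 0.04 (SE, adjusted p = 0.322 by edgeR). Rpl15, a core 60S protein, ran from 426.4 to 443.1 CPM in controls and from 447.9 to 483.4 CPM after doxorubicin, without overlap (log2 fold change 0.11 ± 0.03, adjusted p = 0.358 by edgeR). Rpl3, which lies close to the peptidyl transferase centre, ran from 745.5 to 814.1 CPM and from 796.0 to 895.7 CPM, with overlap (log2 fold change 0.13 ± 0.04, adjusted p = 0.434 by edgeR). Members without overlap between groups were 2 on the higher side, Rps27l and Rpl15, against 2.77% of all genes, and 1 on the lower side, Rps4y2, against 1.95%.

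Rps4y2 carries the symbol of a Y-linked RPS4 form, although the promoter window matched to it by symbol lies on chromosome 4. In control rats 1, 4, 5 and 9 Rps4y2 stood at 255.1, 261.3, 259.0 and 255.4 CPM. It stood at 251.8, 243.1, 252.5 and 247.0 CPM in doxorubicin rats 2, 3, 6 and 8. Every treated value was lower, by little (log2 fold change -0.05, 95% interval -0.12 to 0.01, adjusted p = 0.814 by edgeR). Its control values varied by 1.15% (coefficient of variation), the smallest spread of the 73 members. Rps4x, the X-linked form, held only 7.35 ± 0.62 CPM in control rats and 8.45 ± 1.15 CPM in treated rats under its own row (adjusted p = 0.802 by edgeR). The copy row Rps4x-ps9 held 92.7 ± 11.1 and 105.4 ± 9.54 CPM. Every Rps4y2 value was a whole count, while no Rps4x value was. How reads were divided among the 3 rows is uncertain.

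The 3 stalk genes, whose products recruit translation factors to the ribosome, showed no common direction. Rplp0, the base of the stalk, had the highest count of any member and stood at 1610, 1754, 1755 and 1695 CPM in control rats 1, 4, 5 and 9. After doxorubicin it stood at 1702, 1713, 1758 and 1706 CPM in rats 2, 3, 6 and 8, inside the control range but for rat 6. Its log2 fold change was 0.01 (95% interval -0.06 to 0.09). Rplp1 had a log2 fold change of 0.06 ± 0.04 (SE), with doxorubicin rat 3 at 656.6 CPM against 714.8 to 725.0 CPM in the other treated rats and 663.9 to 691.0 CPM in controls. Rplp2 had a log2 fold change of -0.04 ± 0.05. None passed the threshold (adjusted p = 0.98, 0.822 and 0.96), and each interval lay within 1.25-fold.

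Other members named for their size or p also missed the threshold. Rpl39, a small 60S protein of the exit tunnel, stood at 13.3, 15.1, 14.1 and 13.3 CPM in control rats and at 14.7, 15.6, 15.4 and 18.2 CPM in treated rats. The groups overlapped by rat 4 alone among controls (log2 scale 0.19 ± 0.08, adjusted p = 0.666 by edgeR). Rps2, a 40S protein near the mRNA entry, averaged 682.9 ± 30.4 and 668.7 ± 29.2 CPM, with overlap (adjusted p = 0.961 by edgeR). The rest of the 8 at an unadjusted p below 0.05 were Rpl10a, Rpl19 and Rpl13a, all of the 60S subunit. Their log2 fold changes were 0.10, 0.09 and 0.10, with overlap in each, and these 3 were picked with their values in view.

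The ribosomal proteins known to bind MDM2 were described as a group. Rpl5 and Rpl11, the protein partners of 5S rRNA, had log2 fold changes of 0.05 (95% interval -0.09 to 0.18) and 0.02 (-0.11 to 0.15). Rpl5 ran from 537.1 to 652.4 CPM in controls and from 579.8 to 651.2 CPM in treated rats. Rpl11 ran from 274.6 to 306.9 and from 261.8 to 316.3 CPM, so that both genes overlapped fully. Of the other MDM2 binders, Rpl23, Rpl26, Rps3, Rps14 and Rps7 differed by 0.02, 0.03, 0.05, 0.05 and 0.08 on the log2 scale, with adjusted p from 0.80 for Rps7 to 0.98 for Rpl23. Rps27a, listed with them, differed by 0.08 under its own row (adjusted p = 0.964 by edgeR). No tool called any of these listed genes. Rps27l, also an MDM2 binder and called by DESeq2, was not on that list and was added here with its result known. Rps6, the substrate of S6 kinase downstream of mTORC1, differed by 0.09 ± 0.06 on the log2 scale (adjusted p = 0.851 by edgeR). Rpsa, which doubles as a laminin receptor, differed by 0.04 ± 0.05 on that scale (adjusted p = 0.951 by edgeR).

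Several members have paralogs or retrocopies that are also expressed in the germ line. Rpl10l, an autosomal retrocopy of the X-linked Rpl10 that serves male meiosis in mice, averaged 147.7 ± 4.64 CPM in control rats and 153.9 ± 5.20 CPM in treated rats. Rpl10 stood at 171.2 ± 5.66 and 175.9 ± 8.10 CPM. Rpl10l held 46.3% ± 0.84 of the counts of this pair in control rats and 46.7% ± 0.59 in treated rats. Rpl39l, a paralog found in testis and tumour cells, held 91.8% ± 0.59 and 90.9% ± 1.00 of the counts shared with Rpl39, with control and treated shares overlapping. Rpl36al held 62.5% ± 1.4 and 62.7% ± 1.4 of those shared with Rpl36a. Rpl22l1, outside the rule, held 24.4% ± 1.1 of the counts shared with Rpl22 in controls and 27.4% ± 1.82 after doxorubicin, with a small overlap between groups. It differed by 0.20 ± 0.07 on the log2 scale (adjusted p = 0.49 by edgeR), and Rpl22 by -0.03 ± 0.04 (adjusted p = 0.952). Shares are of counts, not corrected for transcript length. Every Rpl10l value was a whole count, while no value of Rpl10, Rpl39, Rpl39l, Rpl36a or Rpl36al was. How reads were divided within these pairs is uncertain, so the shares may not be those of the transcripts. A further row with the symbol Rpl22 (mean of 2196 counts) was dropped by the rule and is not in the Rpl22l1 share. Rpl3l, the muscle form of Rpl3, fell below the rule's minimum with a mean of 71 counts.

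**Figure D3:**
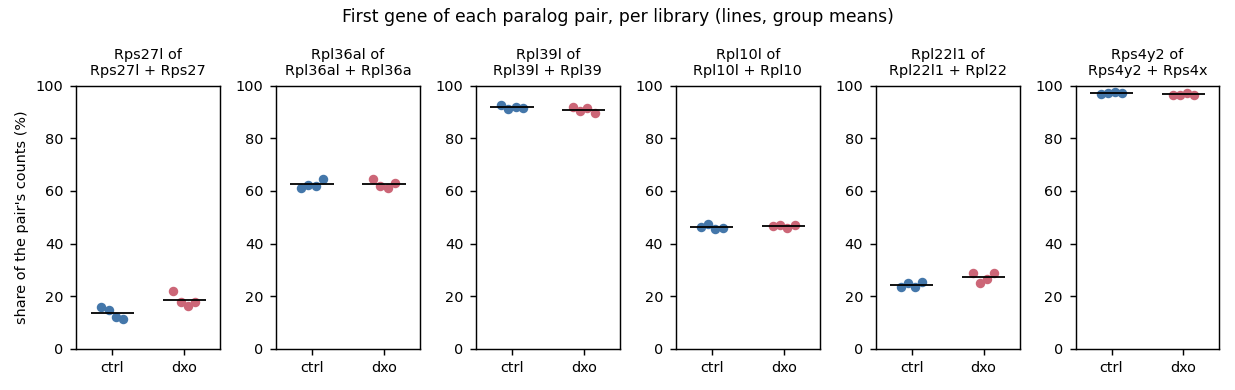
Share of a paralog pair's counts (y axis, percent) that came from the first gene of the pair, for 6 pairs in each control and doxorubicin library, with lines at the group means. The mean Rps27l share is 13.5% in controls and 18.5% after doxorubicin, while the Rpl10l, Rpl36al and Rpl39l shares differ by 1 percentage point or less.

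Ribosomal protein genes have many copies in the genome, whose reads can be hard to tell from those of the parent gene. The -ps suffix and the table's own gene type often differ: of 71 such rows 61 are typed protein coding and 10 pseudogene or processed pseudogene, while the member row Rpl8 is typed pseudogene. Copy rows with a -ps suffix were found for 36 of the 73 members. They held over 50% of the counts of gene and copies together for 2, Rps27a (98.6% ± 0.20 in controls, 98.5% ± 0.06 after doxorubicin) and Rps4x (92.6% ± 1.2 and 92.5% ± 1.2). For Rpl8 the copy share was 33.2% ± 0.76 and 33.1% ± 0.41, and it exceeded 10% in controls for 5 members in all. Rps27a, a ubiquitin fusion, stood at only 4.59 ± 0.76 CPM under its own row, against 320.2 ± 12.5 CPM in its copy row Rps27a-ps1. Neither row differed between groups beyond the spread (log2 fold changes 0.08 ± 0.13 and 0.0042 ± 0.041). With copies added to their parent rows, edgeR again called 0 members and the median log2 fold change was 0.03.

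At the level of whole libraries, the members held 2.36%, 2.49%, 2.57% and 2.48% of all counts in control rats 1, 4, 5 and 9. They held 2.49%, 2.42%, 2.65% and 2.57% in doxorubicin rats 2, 3, 6 and 8. The means were 2.47% ± 0.09 and 2.53% ± 0.10 (SD, n = 4 each), a difference below the spread, with the groups overlapping. The shift was not even across rats. In doxorubicin rat 6, 69 of the 73 members lay above their control mean, and in rat 8, 65, but in rat 3 only 15 did. Among controls rat 5 had 65 members above the control mean, against 26 to 30 in the other 3. The 60S and 40S genes had median log2 fold changes of 0.04 and 0.03. Without doxorubicin rat 3 the median of all members was 0.07, and without doxorubicin rat 6 it was 0.02. In bulk RNA, fewer cells of a type and less RNA per cell cannot be told apart.

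**Figure D4:**
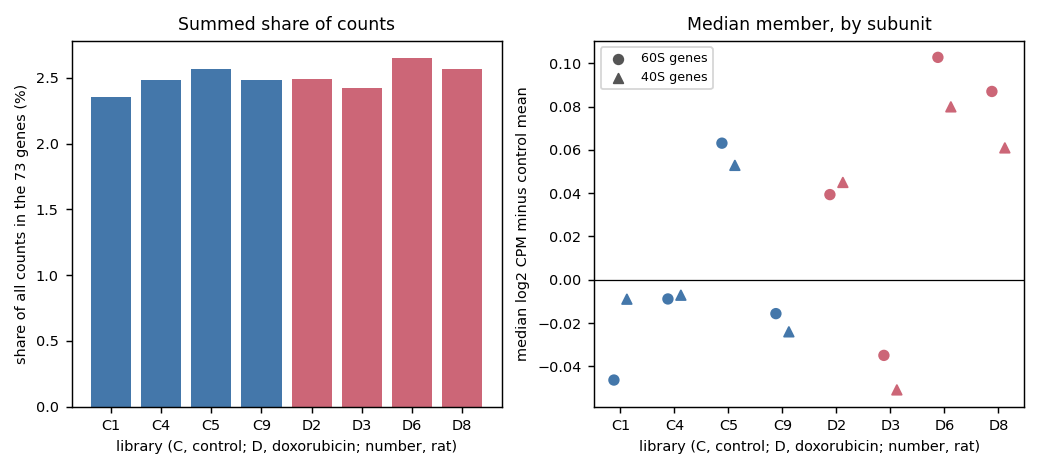
Left, share of all counts in the 73 members (percent) in each library, and right, median log2 CPM of the 60S and the 40S members relative to their control means. Control and doxorubicin libraries overlap in both, with doxorubicin rat 3 among the lowest and doxorubicin rat 6 the highest.

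Between replicates the members were steadier than most genes. Their median coefficient of variation was 4.21% in controls and 4.69% after doxorubicin, against 8.28% and 7.95% over all genes tested, many of which have far fewer counts. The median standard error of a member's log2 fold change was 0.044, against 0.090 over all genes. Control levels reached 1704 CPM for Rplp0, and 65 members exceeded 100 CPM. Members with and without the strict pyrimidine start did not stand apart, with median log2 fold changes of 0.04 in each.

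Genes that act with the ribosomal proteins were described from lists. Of 5 listed ribosomal proteins outside the rule, edgeR and DESeq2 called 0. At an unadjusted edgeR p below 0.05, 2 of the 5 were higher, against 4.19% of all genes tested. Rack1, a 40S scaffold protein, averaged 489.6 ± 10.1 CPM in control rats and 526.3 ± 21.9 CPM in treated rats without overlap (log2 fold change 0.10 ± 0.04, adjusted p = 0.479 by edgeR). Of 15 measured genes of other TOP mRNAs (17 listed), 14 were positive, against 47.8% of all genes tested. The median log2 fold change of the list was 0.04. edgeR and DESeq2 called 0, and 0 had an unadjusted p below 0.05. The lowest p were those of the initiation factor subunit Eif3f (0.12 ± 0.06, adjusted p = 0.765 by edgeR) and the elongation factor subunit Eef1g (0.10 ± 0.06, adjusted p = 0.80). These genes, like the ribosomal proteins, stood slightly above the median of all genes.

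The regulators of TOP mRNAs gave no call either. Of 16 LARP and mTORC1 genes, 6 were positive and 10 negative, with a median log2 fold change of -0.02. edgeR and DESeq2 called 0, and 1 was lower at an unadjusted edgeR p below 0.05, against 2.56% of all genes tested. That gene, the LARP1 paralog Larp1b, averaged 108.6 ± 2.43 CPM in control rats and 101.3 ± 2.74 CPM in treated rats without overlap (log2 fold change -0.10 ± 0.04, adjusted p = 0.517 by edgeR). Tsc2, an inhibitor of mTORC1 signalling, differed by 0.04 ± 0.04 on the log2 scale (adjusted p = 0.932). Of 15 ribosomal protein chaperones and late assembly factors, 11 were negative (median -0.03), with 0 calls by edgeR or DESeq2 and 0 at an unadjusted p below 0.05. The RPL3 chaperone Grwd1 (-0.10 ± 0.05, adjusted p = 0.75 by edgeR) and Heatr3, which serves RPL5 import (-0.07 ± 0.05, adjusted p = 0.882), had the lowest p. Of 6 factors known to bind ribosomal protein promoters, 0 were called by edgeR or DESeq2 and 0 had an unadjusted p below 0.05. Sp1 and Gabpa had the lowest p, at 0.04 ± 0.04 and -0.03 ± 0.04 on the log2 scale (adjusted p of 0.942 and 0.961).

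The mitochondrial ribosomal proteins, which are built into the separate ribosome of mitochondria, lay mostly on the other side of 0. Of 72 measured, 58 were negative and 14 positive, with a median log2 fold change of -0.03, against 62 of 73 positive for the cytosolic members. edgeR and DESeq2 called 0 of them, and 1, Mrpl42, was lower at an unadjusted p below 0.05 (-0.10 ± 0.04, adjusted p = 0.649 by edgeR). Mrps25 came next (-0.12 ± 0.07, adjusted p = 0.797). Over all genes tested, 2.56% were lower at an unadjusted edgeR p below 0.05. The difference between these lists was not tested. Under library size scaling without TMM factors, 59 cytosolic members were positive, and with scaling computed without the members 63 were.

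**Figure D5:**
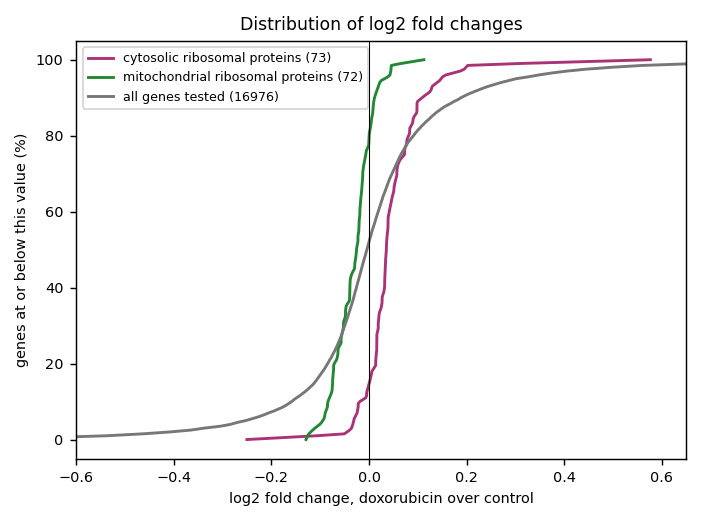
Cumulative percentage of genes (y axis) at or below a log2 fold change (x axis, doxorubicin over control) for the 73 cytosolic and 72 mitochondrial ribosomal protein genes and the 16976 genes tested. The cytosolic curve lies just to the right of 0 (median 0.04) and the mitochondrial curve just to the left (median -0.03), both steeper than that of all genes.

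Library totals ran from 41253848 to 58871101 estimated counts. The 8 pan-germ cell markers summed to 2144 to 2251 CPM in controls and 2183 to 2278 CPM in treated rats. The 7 Sertoli markers summed to 45.9 to 54.7 and 47.7 to 56.7 CPM, the 6 Leydig markers to 7.68 to 9.39 and 4.92 to 11.0 CPM, and the 6 peritubular and stromal markers to 55.3 to 64.9 and 49.6 to 63.3 CPM. Within that last list 5 genes were negative and 1 positive, with 0 called by edgeR or DESeq2. At an unadjusted edgeR p below 0.05, Col1a2 and Pdgfra were lower (log2 fold changes -0.27 and -0.16) and Myh11 higher (0.79). Over all genes tested, 2.56% were lower and 4.19% higher at that p. Myh11 stood at 14.2 CPM in doxorubicin rat 2 and 5.86 to 7.92 CPM in the other treated rats, against 3.96 to 6.23 CPM in controls. Pdgfra and Col1a1 (-0.15) did not overlap between groups. The 5 endothelial markers summed to 71.5 to 85.1 and 81.7 to 93.3 CPM. Most of this was Pecam1, at 70.7 ± 5.23 CPM in controls and 76.5 ± 5.88 CPM in treated rats (adjusted p = 0.805 by edgeR). Group means of Cdh5, Cd34, Tek and Kdr ran only from 2.14 to 2.94 CPM, with Cdh5 and Cd34 lower and Tek and Kdr level in treated rats. The 4 measured of 6 macrophage and leukocyte markers summed to 3.44 to 3.98 and 4.00 to 4.79 CPM. The 4 measured of 6 erythroid markers summed to 6.30 to 8.15 and 8.02 to 13.6 CPM. Mitochondrially encoded genes took 7.47% to 8.67% of counts in controls and 7.37% to 9.23% in treated rats. Of the erythroid genes, the anion exchanger Slc4a1 was called by edgeR (log2 fold change 1.28, adjusted p = 0.0339 by edgeR). Slc4a1 stood at 10.8 CPM in doxorubicin rat 2 and 6.08 to 6.75 CPM in the other treated rats, against 2.62 to 3.36 CPM in controls. Hbb and Hba-a1 were lower by DESeq2 alone (adjusted p = 0.0242 and 0.0382). The part of these in the small shift of the ribosomal protein genes was not tested.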

How the data were processed

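The authors deposited 1 table of estimated counts per gene, 1 column per rat, not normalized. The submitters' processing notes name fastp 0.23.2, kallisto 0.48.0, featureCounts, DESeq2 1.40.2 and build rn6, without roles. Between 32.5% and 33.6% of a library's values were not whole, so counts were rounded. The strand setting, and how near-identical copies divided their reads, is not given in the sources used here.

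Groups came from sample titles. Genes kept by filterByExpr were scaled by TMM and tested with edgeR 4.0.16 (glmQLFit, robust = TRUE, glmQLFTest) in R 4.3.3, with Benjamini-Hochberg adjustment over 16976 genes and a threshold of 0.05. DESeq2 1.42.0 and limma 3.58.1 (voom) were alternatives. Standard errors were derived from the fold change and the F value. The procedure was tested on simulated data. Every pair of libraries differed by more than sampling noise (chi-square per degree of freedom at least 6.22), so none was a repeat of another and all were kept. That each came from a separate rat rests on the sample titles. RefSeq promoter windows (GRCr8) were matched by gene ID (44) or symbol (12). The rule to name genes by level per coding length was not applied, since no lengths were used here.

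The members, lists and block were chosen with earlier results of these data known. Named genes were those called, the 4 with the smallest p and the 4 with the largest change in each direction, paralog pairs, stalk genes, MDM2 binders, Rpsa, Rps6, the members nearest the count minimum, and the 2 with the smallest p per list. Of the members, 1 was kept in all counts and medians but is not reported here on its own.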

Additional observations from a re-analysis of the deposited data

Results flagged for a closer look

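Of 86 groups of 4 libraries examined for the named genes and the summed share, 2 held an outlying library. By chance about 1 in 20 groups would, or 4.3 of these. Rps27l stood at 55.8 CPM in doxorubicin rat 2, above the 40.7 to 42.6 CPM of the other treated rats. Rplp1 stood at 657 CPM in doxorubicin rat 3, below the 715 to 725 CPM of the other treated rats.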

How the results depend on the processing

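The median log2 fold change of the members stayed positive in all fits, from 0.0249 to 0.0711 with 1 library left out. The difference in the summed share ran from 0.0209 to 0.0969 percentage points with 1 library left out (0.0599 with all), lowest without doxorubicin rat 6 (0.0209) and control rat 1 (0.0213) and highest without doxorubicin rat 3 (0.0969) and control rat 5 (0.0915). The count of members called was 0 in most fits and 1 with DESeq2, without robust fitting (edgeR adjusted p = 0.0448), with the rat-number set as a term, within rats 5 to 9 and at an adjusted p below 0.1. It was 0 to 1 with 1 library left out, the 1 being without doxorubicin rat 2. The member was Rps27l in each case. Its log2 fold change ran from 0.457 to 0.628 with 1 library left out, with edgeR adjusted p from 0.00855 to 0.334. Over all genes 19 were called, and 170 with DESeq2, 53 without robust fitting, 61 with the rat-number set as a term, 0 within rats 1 to 4 and 92 within rats 5 to 9. With 1 library left out the count ran from 1 (control rat 5 or doxorubicin rat 8) to 62 (doxorubicin rat 2), and it was 2 when control rat 4 was omitted, 3 when control rat 9 was, and 11 when control rat 1 or doxorubicin rat 6 was. The cause was not tested.

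Of the named genes, those near 0 changed sign in 21 combinations of gene and fit, none of them called. Without control rat 1 the log2 fold changes were -0.0092 for Rps27, -0.0034 for Rpl36a, -0.020 for Rpl36al, -0.013 for Rplp0, -0.0039 for Rpl5, -0.0061 for Rpl11 and -0.0014 for Rpsa. Without control rat 4 Rpl11 was at -0.00058, and without control rat 9 Rpl39l was at -0.014. Without doxorubicin rat 6 Rpl36a, Rpl39l and Rpl11 were at -0.010, -0.0018 and -0.0089. Within rats 1 to 4, a split added after seeing the data, Rpl36a, Rpl39l, Rpl23 and Rps27a were at -0.00064, -0.045, -0.040 and -0.018. Within rats 5 to 9 Rpl22, Rplp2, Rps27, Rpl36al and Gabpa were at 0.015, 0.038, -0.020, -0.014 and 0.047. With 1 library left out the highest values of these genes were 0.071 for Rps27, 0.059 for Rpl36a, 0.079 for Rpl36al, 0.061 for Rpl39l, 0.032 for Rplp0, 0.092 for Rpl5, 0.078 for Rpl11 and 0.082 for Rpsa. No paired analysis was possible because the groups share no rat number.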

Other observations

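Beyond the members, 87 rows carried other ribosomal protein symbols, 71 of them with a -ps suffix. Of the 87, 25 had a mean of at least 100 counts and were tested, with 0 called by edgeR or DESeq2 and a median log2 fold change of 0.05. At an unadjusted edgeR p below 0.05, 3 were higher (Rpl22l1, Rps7-ps23 and Rps20-ps10) and 1 lower (Rpl36al-ps5) in treated rats. Over all genes tested, 4.19% were higher and 2.56% lower at that p. Rpl38 had 0 counts in every library, while the most abundant of the rows named Rpl38-ps9 (ENSRNOG00000066047.1) averaged 118.0 ± 2.43 CPM in control rats and 117.0 ± 6.24 CPM in treated rats (SD, n = 4 per group). Rpl30 had a mean of 2.64 counts, and Rpl30l2 averaged 185.5 ± 4.94 and 192.5 ± 11.9 CPM. Rps18l1 averaged 281.3 ± 13.9 and 293.3 ± 15.7 CPM. With all 168 rows of ribosomal protein symbols summed, the share of counts was 2.69% ± 0.09 in control rats and 2.76% ± 0.11 in treated rats. The rows named here were chosen after their values were seen.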
